A study of Mus musculus with 6 samples.

Results

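The genes described here are 10 regulators of the cell division cycle, chosen by symbol: the 7 cyclin-dependent kinase (CDK) inhibitor genes Cdkn1a, Cdkn1b, Cdkn1c, Cdkn2a, Cdkn2b, Cdkn2c and Cdkn2d, the tumour suppressor gene Trp53 with its antagonist Mdm2, and the retinoblastoma gene Rb1. All 10 were found among the 48368 gene symbols of the count tables, and all 10 passed the filter on low counts among 17584 genes tested. RNA of cultured primary cancer-associated fibroblasts, the stromal cells of a tumour, was sequenced in 6 libraries. The cells came from mammary tumours of mice with the MMTV-PyMT transgene, in which a mammary promoter drives the polyomavirus middle T oncogene. Of these libraries, 3 were labelled knockout (KO, Hic-5-/-) and 3 heterozygous (HET, Hic-5+/-) for Hic-5, a focal adhesion adaptor related to paxillin. Every animal thus carried the transgene and at least 1 disrupted Hic-5 allele, and no wild-type library was compared. The cells were grown in serum after digestion of the tumours, so any tumour or immune cells that survived the separation would be counted too. The labels give no age. The series text calls the libraries technical triplicates while most titles carry different numbers, so each p-value rests on how these libraries varied and on nothing wider. Within each label they differed beyond counting error, but no source states whether the libraries came from separate cultures.

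CDK inhibitors fall into 2 families. The Cip/Kip proteins p21, p27 and p57 (Cdkn1a, Cdkn1b, Cdkn1c) bind many cyclin-CDK complexes, while the Ink4 proteins p16Ink4a, p15Ink4b, p18Ink4c and p19Ink4d (Cdkn2a to Cdkn2d) bind CDK4 and CDK6 and keep cyclin D away. Both keep the Rb protein unphosphorylated, so that it holds back E2F factors and entry into S phase. Cdkn2a also encodes Arf from another first exon and reading frame, and Arf restrains Mdm2, the ubiquitin ligase that marks p53 for destruction. p53 in turn activates Cdkn1a and Mdm2. In cultured fibroblasts Cdkn2a, Cdkn2b and Cdkn1a are known for rising during senescence.

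The libraries held between 24954273 and 42470598 estimated counts. CPM values use library totals scaled by TMM factors. Tgfb1i1, which encodes Hic-5, stood at 90.4, 0.232 and 156 CPM in KO replicates 1 to 3, and at 223, 348 and 125 CPM in HET replicates 1 to 3. The targeted transcript was thus nearly missing from only 1 of the 3 libraries labelled KO (log2 fold change -1.495 ± 1.54 SE, adjusted p = 0.756 in edgeR), and all directions compare labels. KO replicate 2 also stood apart in cell identity: 8 of 10 tested fibroblast markers were lower there than in each of the other 5 libraries, with Col1a2 at 0.491 CPM, and 6 of 7 tested epithelial markers were higher than in each of them. Over all genes tested, KO replicate 2 was the lowest library in 23.6% and the highest in 26.3%. The summed level of the epithelial markers was 28.3, 87.9 and 28.2 CPM in KO replicates 1 to 3, and 65.8, 17.8 and 18.4 CPM in HET replicates 1 to 3. Outside KO replicate 2 that sum was mostly Krt19, which went the other way, with 27.2, 0.542 and 17.8 CPM in KO replicates 1 to 3, and 64.1, 13.0 and 16.2 CPM in HET replicates 1 to 3. Krt18 had 0.227, 37.9 and 2.93 CPM in KO replicates 1 to 3, and 0.390, 0.882 and 0.549 CPM in HET replicates 1 to 3. Summed fibroblast markers were 7280, 3264 and 6590 CPM in KO replicates 1 to 3, and 18048, 9576 and 9569 CPM in HET replicates 1 to 3. In KO replicate 2 most of that sum was Vim, at 2870 CPM, which had 2020 to 4387 CPM in the other libraries. Of 6 tested pericyte or smooth muscle markers, 5 were lowest in KO replicate 2, and Mcam was highest there. Acta2 had 45.5 CPM in KO replicate 2 and 1338 to 6455 CPM in the other libraries. Myh11 had 244 CPM in HET replicate 2 and 0.258 to 21.3 CPM in the other libraries. Leukocyte markers summed to 1134 CPM in KO replicate 3 and 1403 CPM in HET replicate 2, mostly from Lyz2, and to between 16.2 and 50.5 CPM in the other 4 libraries. Ptprc, the pan-leukocyte gene, had 5.67 CPM in KO replicate 3 and 8.19 CPM in HET replicate 2. It had no count in KO replicate 2 or HET replicate 1, and 2 and 1 counts in KO replicate 1 and HET replicate 3. Adgre1, another leukocyte marker, had 5.71 CPM in KO replicate 3, 18.1 CPM in HET replicate 2 and no count elsewhere. Csf1r and Cd14 were less confined, with Csf1r at 20.8 CPM in HET replicate 1 and Cd14 at 16.1 CPM in KO replicate 1. The part of these cell differences in the results below was not tested, and in bulk RNA fewer cells of a type and less RNA per cell cannot be told apart.

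The sequences upstream of Cdkn1a, Cdkn2a and Cdkn2b are shown because these 3 inhibitors gave the highest levels among the 7 in HET cells, and because Cdkn1a is the classic p53 target. Each is the 250 bases before a RefSeq start (GRCm38.p6), 5′ to 3′ on the strand of the gene. Capitals mark the GC box GGGCGG, the short Smad-binding sequence CAGAC, the E2F octamers TTTGGCGC, TTTCGCGC, TTTCCCGC and TTTGCCGC, and a p53 site of 20 bases made of 2 adjoining decamers with at most 1 base off the consensus, each on either strand. The first 2 windows lie before the outer and the inner start of Cdkn1a at chr17:29090729-29090978 and chr17:29093519-29093768 (plus strand). The next 2 lie before the Arf start and the p16Ink4a start of Cdkn2a at chr4:89294620-89294869 and chr4:89282193-89282442, and the last before Cdkn2b at chr4:89311033-89311282 (all minus strand).
Cdkn1a, outer start: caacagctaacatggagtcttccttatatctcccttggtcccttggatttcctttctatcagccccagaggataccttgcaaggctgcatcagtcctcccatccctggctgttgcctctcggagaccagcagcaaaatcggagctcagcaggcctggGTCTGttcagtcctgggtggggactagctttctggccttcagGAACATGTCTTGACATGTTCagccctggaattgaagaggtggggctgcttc
Cdkn1a, inner start: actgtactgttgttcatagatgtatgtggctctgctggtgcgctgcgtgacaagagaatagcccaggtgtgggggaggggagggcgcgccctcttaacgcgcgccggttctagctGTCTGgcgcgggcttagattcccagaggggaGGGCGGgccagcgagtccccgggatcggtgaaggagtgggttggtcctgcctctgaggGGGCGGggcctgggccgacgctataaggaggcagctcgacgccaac
Cdkn2a, Arf start: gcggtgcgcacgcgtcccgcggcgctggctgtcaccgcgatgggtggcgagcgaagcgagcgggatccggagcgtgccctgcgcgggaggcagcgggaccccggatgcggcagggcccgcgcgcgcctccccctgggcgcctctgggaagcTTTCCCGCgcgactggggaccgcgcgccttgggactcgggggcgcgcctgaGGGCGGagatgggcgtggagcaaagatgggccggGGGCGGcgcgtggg
Cdkn2a, p16Ink4a start: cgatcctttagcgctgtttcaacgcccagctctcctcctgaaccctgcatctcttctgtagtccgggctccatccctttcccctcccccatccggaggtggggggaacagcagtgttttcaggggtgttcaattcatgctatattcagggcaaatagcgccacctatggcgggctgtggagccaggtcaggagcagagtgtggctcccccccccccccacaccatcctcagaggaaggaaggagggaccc
Cdkn2b: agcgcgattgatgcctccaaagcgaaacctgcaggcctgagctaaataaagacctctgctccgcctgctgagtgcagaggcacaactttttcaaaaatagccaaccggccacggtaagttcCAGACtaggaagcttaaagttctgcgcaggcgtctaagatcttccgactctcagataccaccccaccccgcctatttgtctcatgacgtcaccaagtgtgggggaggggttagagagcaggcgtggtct
The long capital run before Cdkn1a, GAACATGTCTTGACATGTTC, begins 51 bases before that start. Such a p53 site was found in 25 of 32817 upstream windows in the table (0.0762%). The window of the inner Cdkn1a start held no such site but 2 GC boxes, and both Cdkn1a windows held 1 CAGAC on the other strand. The Arf window held 1 E2F octamer, which 1.86% of windows held, and 2 GC boxes, which 32.7% held, while the p16Ink4a window held none of the marked motifs. The Cdkn2b window held a single CAGAC, present in 42.2% of windows. RefSeq windows were matched for 8 of the 10 genes (11 windows), and these matches describe letters only. Gene totals do not resolve starts, so Arf and p16Ink4a transcripts are added together in every Cdkn2a value.

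Cdkn2b was the one gene of the 10 whose libraries did not overlap between the labels. It lies on chromosome 4 from 89306299 to 89311039 (GRCm38), next to Cdkn2a, and its product p15Ink4b is known as an inhibitor that TGF-beta induces. It stood at 8.08, 17.2 and 25.6 CPM in KO replicates 1 to 3, and at 57.7, 126 and 71.5 CPM in HET replicates 1 to 3. Every KO library was below the lowest HET library. The means were 17.0 ± 8.75 CPM in KO and 84.9 ± 35.9 CPM in HET (SD, n = 3 each), a log2 fold change of -2.33 ± 0.51 (SE). The edgeR quasi-likelihood test gave an unadjusted p of 0.0032 and an adjusted p of 0.579, so Cdkn2b did not pass over all genes. No gene passed that test (0% of 17584). In simulated data with the spread of these libraries, the same test recovered 4% of 2-fold and 38% of 4-fold changes. Not passing it therefore does not show that levels were equal. An unadjusted p under 0.05 was reached by 1511 genes (8.59%; 4.30% higher and 4.29% lower in KO), and by 1 of the 10, lower in KO. Libraries did not overlap in 15.5% of all genes tested (8.09% higher and 7.40% lower in KO), against 1 of the 10, lower in KO. DESeq2 called Cdkn2b at an adjusted p of 0.0040, as it did 1.53% of the genes it adjusted (1.08% lower in KO), and over all alternatives the adjusted p ran from 0.0040 to 0.975. Its log2 fold change was -2.35 without KO replicate 2, and it stayed between -2.75 and -1.93 when any 1 library was left out.

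**Figure D1:**
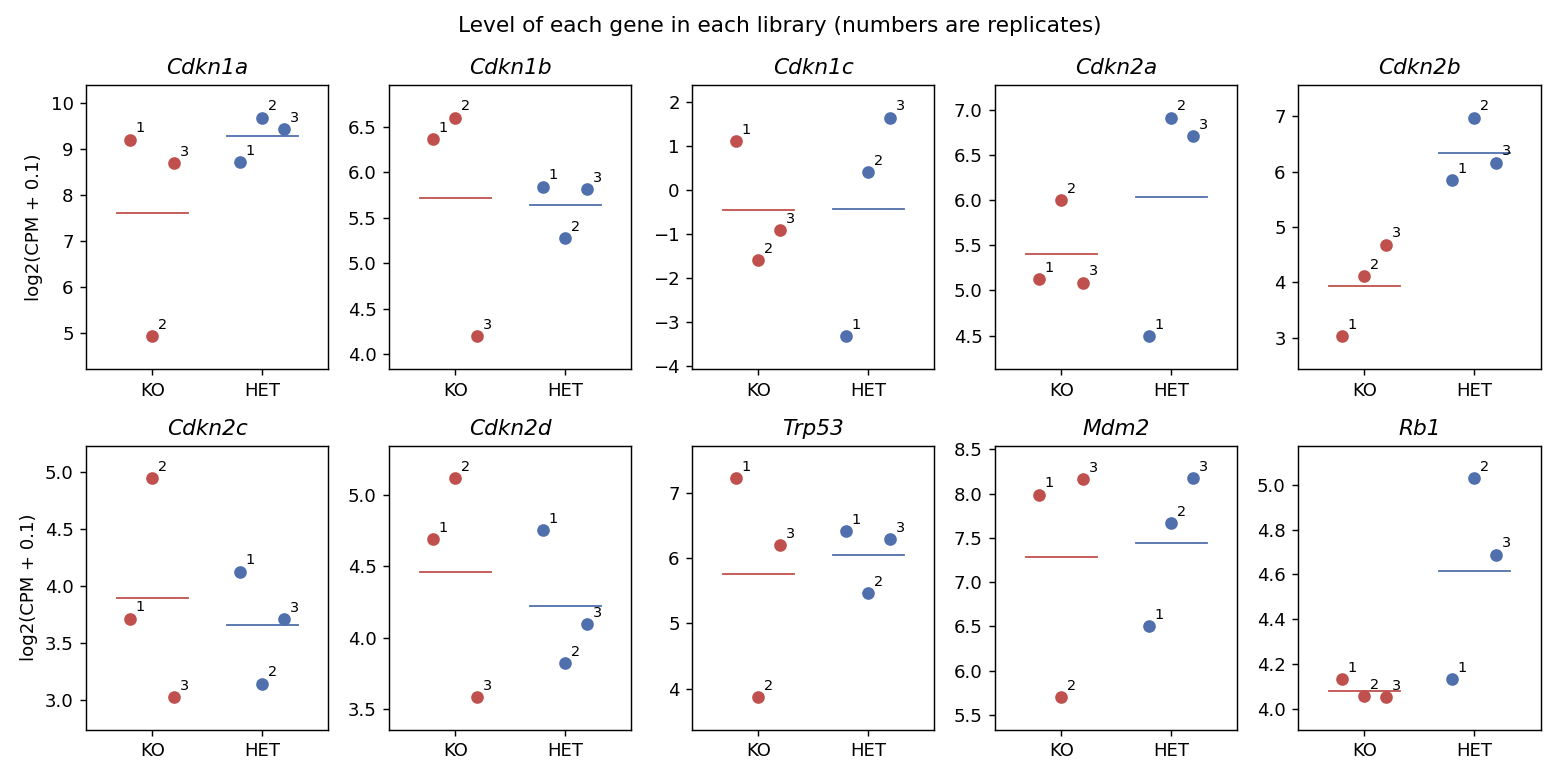
Level of each of the 10 genes as log2(CPM + 0.1) in the 3 KO libraries (left) and the 3 HET libraries (right), with replicate numbers beside the points and the group mean of the plotted values as a line; each panel has its own axis. The Cdkn2b libraries are separated, and KO replicate 2 is the lowest point for Cdkn1a, Trp53 and Mdm2.

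Cdkn2a (chromosome 4, 89274471 to 89294653) had no such separation. It stood at 34.9, 64.0 and 33.9 CPM in KO replicates 1 to 3, and at 22.4, 121 and 105 CPM in HET replicates 1 to 3. HET replicate 1 was the lowest of all libraries, and the other HET libraries were the highest. The log2 fold change was -0.90 ± 0.62 (SE; edgeR adjusted p = 0.662), and -1.34 without HET replicate 1, with an unadjusted p of 0.011 and an adjusted p of 0.564. It was -0.52 without HET replicate 2 (unadjusted p = 0.476) and -0.42 on log2(RPKM + 1), and no other alternative gave an unadjusted p under 0.05. The neighbours did not keep 1 ratio: there were 4.32, 3.72 and 1.32 Cdkn2a counts per Cdkn2b count in KO replicates 1 to 3, and 0.389, 0.961 and 1.47 in HET replicates 1 to 3. KO replicates 1 and 2 lay above every HET library in this ratio and KO replicate 3 lay within them.

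The other genes of that region were described by a list. Of its 6 genes 3 were tested, none had an unadjusted p under 0.05, and the median log2 fold change was 0.42, against 0.011 over all genes tested, and -0.14 without KO replicate 2. Mtap, which encodes an enzyme of methionine salvage, had 66.6, 223 and 156 CPM in KO replicates 1 to 3, and 106, 95.2 and 110 CPM in HET replicates 1 to 3. KO libraries lay on both sides of the HET range. Klhl9 had a log2 fold change of -0.42 ± 0.28 and Focad one of 0.42 ± 0.41 (SE; edgeR adjusted p = 0.658 and 0.745).

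Among the 22 tested genes for known regulators of the Cdkn2a and Cdkn2b locus, mainly Polycomb subunits and transcription factors, 13 were above 0 and 9 below, with a median log2 fold change of 0.19. Over all 17584 genes tested, 8950 were above 0. In the list, 1 gene in each direction had an unadjusted edgeR p under 0.05, against 8.59% of all genes tested. Ets2, an ETS factor reported to activate p16Ink4a, had 57.0, 65.3 and 25.4 CPM in KO replicates 1 to 3, and 28.4, 21.4 and 24.2 CPM in HET replicates 1 to 3. Ring1, a Polycomb ubiquitin ligase subunit, had 11.8, 11.8 and 10.9 CPM in KO replicates 1 to 3, and 18.0, 14.9 and 17.5 CPM in HET replicates 1 to 3, without overlap. Kdm2b, a histone demethylase, was also highest in KO replicate 2, at 47.5 CPM (log2 fold change 0.79 ± 0.34 SE). Ezh2, the Polycomb histone methyltransferase, was highest in KO replicate 2 at 88.2 CPM and lowest in HET replicate 2 at 8.59 CPM, with the other 4 libraries between 19.4 and 35.3 CPM. The adjusted p in edgeR was 0.579 for Ets2 and Ring1, 0.587 for Kdm2b and 0.588 for Ezh2.

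Cdkn2c and Cdkn2d, the Ink4 genes that cycling cells also express, were highest in KO replicate 2. Cdkn2c stood at 13.0, 30.7 and 8.05 CPM in KO replicates 1 to 3, and at 17.4, 8.73 and 13.0 CPM in HET replicates 1 to 3. Cdkn2d stood at 25.7, 34.6 and 11.9 CPM in KO replicates 1 to 3, and at 26.9, 14.0 and 17.0 CPM in HET replicates 1 to 3. For both, KO replicate 3 was the lowest library and KO replicate 2 the highest, so that the labels overlapped fully. Their log2 fold changes of 0.41 ± 0.54 and 0.32 ± 0.45 (SE; edgeR adjusted p = 0.821 and 0.831) became -0.30 and -0.031 without KO replicate 2.

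Cdkn1a, on chromosome 17 from 29090976 to 29100727, encodes p21 and had the highest level per length of the 10 genes in every library but KO replicate 2. It stood at 589.6, 30.3 and 415 CPM in KO replicates 1 to 3, and at 418, 821 and 695 CPM in HET replicates 1 to 3. KO replicate 2 was 13.7-fold under the lowest of the other libraries, while KO replicate 1 lay inside the HET range and KO replicate 3 at its lower edge. The log2 fold change of -0.90 ± 0.92 (SE; edgeR adjusted p = 0.755) was -0.36 without KO replicate 2, -1.55 without KO replicate 1 and -1.65 in limma-voom.

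Cdkn1b, which encodes p27, went the other way in that library. It stood at 82.3, 97.0 and 18.2 CPM in KO replicates 1 to 3, and at 57.2, 38.7 and 56.1 CPM in HET replicates 1 to 3. KO replicates 1 and 2 were above the HET range and KO replicate 3 below it. There were 3.20 Cdkn1b counts per Cdkn1a count in KO replicate 2, and 0.0439 to 0.140 in the other libraries. The log2 fold change was 0.38 ± 0.58 (SE; edgeR adjusted p = 0.846), and 0.83 without KO replicate 3 (unadjusted p = 0.018, adjusted p = 0.393), but -0.0015 without KO replicate 2 (unadjusted p = 0.998).

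Cdkn1c, the imprinted gene of p57, was scarce. It had 90.5, 9 and 11 estimated counts in KO replicates 1 to 3 (2.06, 0.232 and 0.436 CPM), and 0, 43 and 77.4 in HET replicates 1 to 3 (0, 1.22 and 3.03 CPM). A count of 0 in HET replicate 1 allows up to 3 counts, or 0.106 CPM. The log2 fold change of -0.63 ± 1.504 (SE) changed sign between alternatives. The list of genes around it on chromosome 7 reached as far as H19 (from 142575529, against 143458339 for Cdkn1c). Of its 7 tested genes 4 were above 0, the distant Igf2 and H19 among them. The list median was 0.31, and -0.18 without KO replicate 2. Slc22a18, a transporter gene, had 0.546, 0.387 and 1.11 CPM in KO replicates 1 to 3, and 1.95, 3.21 and 5.10 CPM in HET replicates 1 to 3, with an edgeR adjusted p of 0.579 and a DESeq2 adjusted p of 0.034. H19, an imprinted noncoding RNA, had 0.546, 73.0 and 11.5 CPM in KO replicates 1 to 3, and 0.425, 2.76 and 1.77 CPM in HET replicates 1 to 3 (edgeR unadjusted p = 0.043, adjusted p = 0.579). Nap1l4, a histone chaperone gene, and Cd81, a tetraspanin gene, had log2 fold changes of 0.31 ± 0.18 and -0.86 ± 0.49 (SE).

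**Figure D2:**
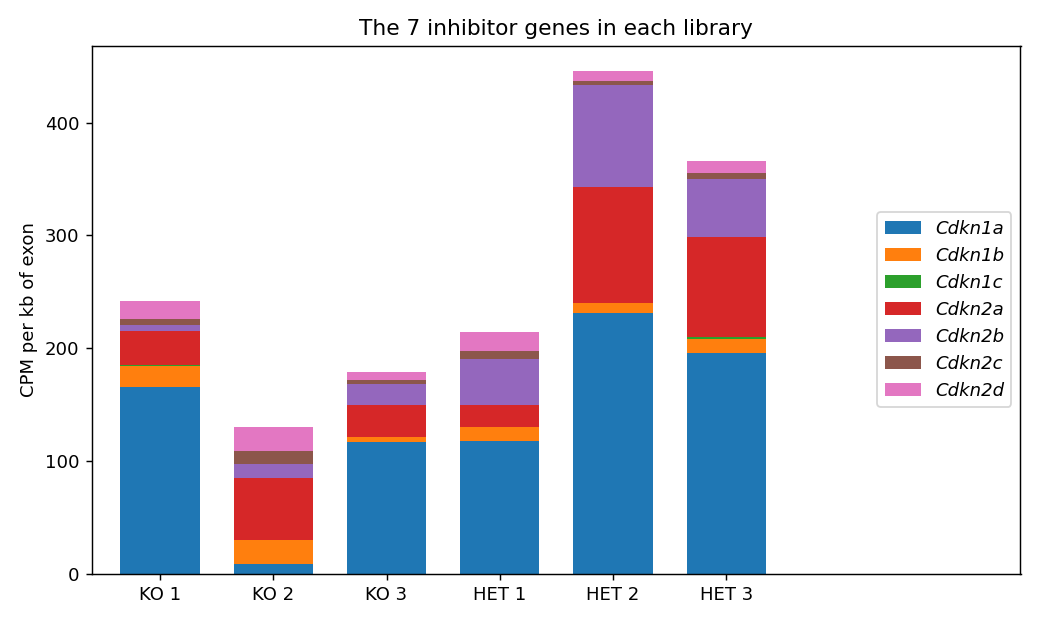
Stacked levels of the 7 inhibitor genes in CPM per kb of exon, for KO replicates 1 to 3 (left) and HET replicates 1 to 3 (right). The Cdkn1a segment is 8.53 in KO replicate 2 and at least 117 in the other libraries; the Cdkn2b segment is at most 18.4 in KO libraries and at least 41.5 in HET libraries.

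Levels per length put the genes in order. In KO, Cdkn1a averaged 97.1 ± 80.5 CPM per kb of exon, followed by Mdm2 (38.9 ± 25.03), Cdkn2a (37.8 ± 14.6), Trp53 (19.5 ± 16.6), Cdkn2d (15.3 ± 7.27), Cdkn1b (14.5 ± 9.20), Cdkn2b (12.2 ± 6.30), Cdkn2c (6.43 ± 4.44), Rb1 (2.80 ± 0.0899) and Cdkn1c (0.446 ± 0.491). In HET, Cdkn1a averaged 181 ± 58.1 CPM per kb of exon, followed by Cdkn2a (70.5 ± 45.0), Cdkn2b (61.1 ± 25.8), Mdm2 (38.2 ± 19.5), Trp53 (17.0 ± 5.41), Cdkn2d (12.3 ± 4.28), Cdkn1b (11.1 ± 2.28), Cdkn2c (4.85 ± 1.61), Rb1 (4.19 ± 1.26) and Cdkn1c (0.696 ± 0.749; SD, n = 3 in each group). In KO the steps between Cdkn2a and Trp53 and between Rb1 and Cdkn1c exceeded the SD of both genes. In HET the steps between Cdkn1a and Cdkn2a, Mdm2 and Trp53, Cdkn1b and Cdkn2c, and Rb1 and Cdkn1c did so, and the other neighbours did not differ beyond their spread. The 7 inhibitors summed to 242, 130 and 179 CPM per kb of exon in KO replicates 1 to 3, and to 214, 446 and 366 in HET replicates 1 to 3.

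**Figure D3:**
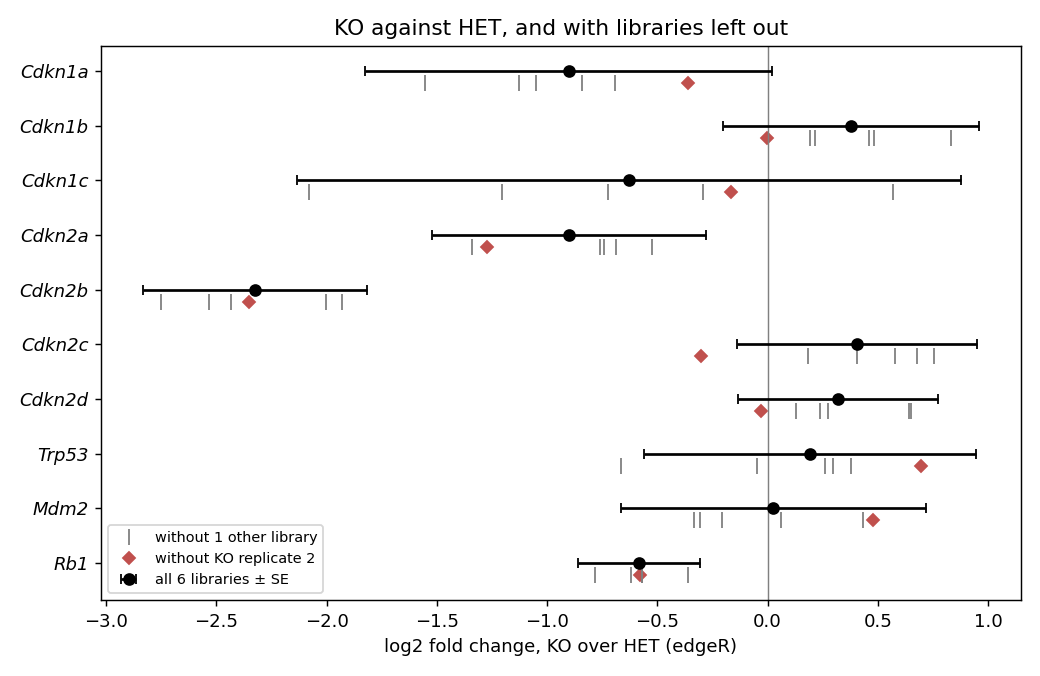
Log2 fold change, KO over HET, of each gene from edgeR with all 6 libraries (black, ± SE), without KO replicate 2 (red diamonds) and without each other library (grey bars). Cdkn2b stays between -2.75 and -1.93, whereas Cdkn2c, Cdkn2d and Cdkn1b move to -0.30, -0.031 and -0.0015 without KO replicate 2.

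Trp53 (chromosome 11, 69580359 to 69591873) stood at 149, 14.5 and 73.0 CPM in KO replicates 1 to 3, and at 84.7, 43.9 and 77.9 CPM in HET replicates 1 to 3. The KO group held both the highest and the lowest library, with KO replicate 2 at 3.02-fold under the lowest of the others. The fold change between labels was 1.14 (log2 0.19 ± 0.75 SE, edgeR adjusted p = 0.941), and leaving out KO replicate 2 gave a log2 value of 0.69, leaving out KO replicate 1 one of -0.66. A processed copy, Trp53-ps, had at most 1 count in any library.

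Mdm2 (chromosome 10, 117688875 to 117710758) stood at 254, 52.0 and 287 CPM in KO replicates 1 to 3, and at 90.4, 203 and 288 CPM in HET replicates 1 to 3. KO replicate 2 was again the lowest, 1.74-fold under HET replicate 1, and the rest of both groups overlapped (log2 fold change 0.027 ± 0.69 SE, edgeR adjusted p = 0.993). The log2 value was 0.48 without KO replicate 2.

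Rb1, which lies on chromosome 14 from 73183673 to 73325822, stood at 17.5, 16.5 and 16.5 CPM in KO replicates 1 to 3, and at 17.4, 32.6 and 25.7 CPM in HET replicates 1 to 3. HET replicate 1 lay within the narrow KO range and the other HET libraries above it. The log2 fold change was -0.58 ± 0.28 (SE, edgeR unadjusted p = 0.077, adjusted p = 0.592), and -0.78 without HET replicate 1 (unadjusted p = 0.019), the one alternative of 17 with an unadjusted p under 0.05. It was -0.36 without HET replicate 2 (unadjusted p = 0.260) and -0.048 on log2(RPKM + 1), a scale that understates low genes. Rb1 overlaps Lpar6 and Rcbtb2 on the other strand, and reads of the pair may not have been told apart, since no source states how strand was handled.

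The p53 target genes were mostly below 0, and KO replicate 2 was often the lowest library. Of 35 tested targets, 8 were above 0 and 27 below in KO against HET, with a median log2 fold change of -0.29, against 0.011 over all genes tested. Over all 17584 genes tested, 8950 were above 0. No target passed edgeR over all genes, while 1 above and 2 below had an unadjusted p under 0.05, against 8.59% of genes tested. KO replicate 2 was the lowest of the 6 libraries in 19 of the 35 targets, a place it took in 23.6% of all genes tested. Without KO replicate 2 the median was -0.08 and 17 of 35 were above 0.

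Several targets were far lower in that library. Eda2r, of the TNF receptor family, had 72.4, 3.90 and 51.3 CPM in KO replicates 1 to 3, and 56.5, 69.7 and 91.1 CPM in HET replicates 1 to 3. Ccng1, cyclin G1, had 842, 100.2 and 984 CPM in KO replicates 1 to 3, and 845, 1740.0 and 1867 CPM in HET replicates 1 to 3. Btg2, an antiproliferative gene, had 88.9, 7.23 and 44.6 CPM in KO replicates 1 to 3, and 69.6, 66.6 and 118.6 CPM in HET replicates 1 to 3. In all 3 KO replicate 2 alone lay far outside the range of the rest; these 3 were chosen after their values were seen. Other targets did not share this: Plk2 was highest in KO replicate 2 at 333 CPM, and Ddb2, Epha2 and Rprm were also highest there.

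By the rule of smallest p, the targets to name were Gadd45a, Epha2, Steap3 and Plk2. Gadd45a, a growth arrest and DNA damage gene, had 10.3, 11.9 and 12.2 CPM in KO replicates 1 to 3, and 17.4, 23.7 and 23.7 CPM in HET replicates 1 to 3, without overlap. The log2 difference came to -0.91 ± 0.24 (SE); the adjusted p was 0.579 in edgeR and 0.044 in DESeq2. Epha2 and Plk2 had log2 fold changes of 1.34 and 0.81, and Steap3 one of -1.64 (edgeR adjusted p between 0.579 and 0.588).

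**Figure D4:**
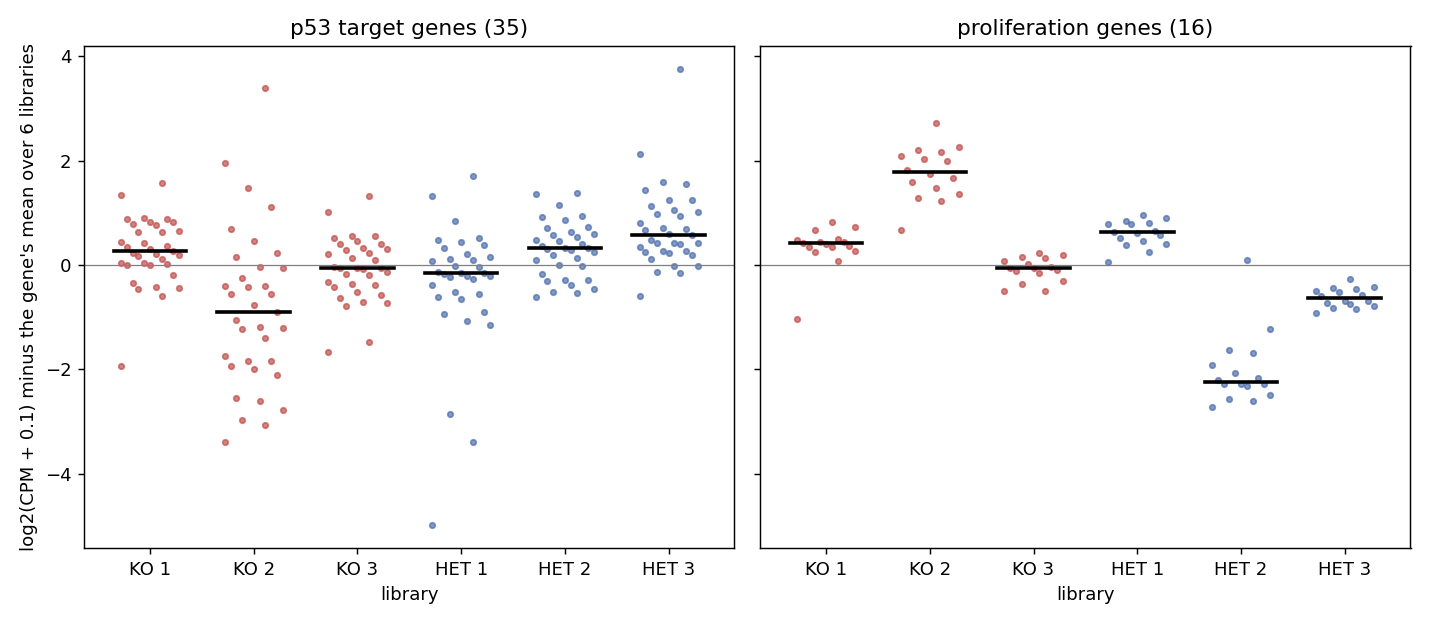
Each point is 1 gene's log2(CPM + 0.1) minus its mean over the 6 libraries, for 35 p53 target genes (left) and 16 proliferation genes (right), with KO replicates 1 to 3 before HET replicates 1 to 3 and the median of each library as a black line. In KO replicate 2 the median is -0.90 for p53 targets and 1.78 for proliferation genes, and in HET replicate 2 it is 0.33 and -2.24.

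Genes that act on p53 gave no clear direction. Of 18 tested regulators and relatives, 10 were above 0 and 8 below, with a median log2 fold change of 0.22 (0.095 without KO replicate 2), and none had an unadjusted p under 0.05. Npm1, nucleophosmin, had 385, 615 and 508 CPM in KO replicates 1 to 3, and 329, 236 and 408 CPM in HET replicates 1 to 3, with 1 KO library inside the HET range. Usp7, a deubiquitinase of p53 and Mdm2, Atm, the DNA damage kinase, and Chek1, a checkpoint kinase, were each highest in KO replicate 2, at 120.4, 57.4 and 24.2 CPM. The 4 had edgeR adjusted p values between 0.592 and 0.621.

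Cyclins and CDKs were listed together with genes that act on CDKs or on p27. Of these 20 tested genes, 17 were above 0, with a median log2 fold change of 0.81. Of all 17584 genes tested, 8950 were above 0. In the list, 3 genes above and 1 below had an unadjusted edgeR p under 0.05, against 8.59% of all genes tested. Without KO replicate 2 the median was 0.37, with 17 of 20 still above 0. Cks1b, the cofactor through which the Skp2 ligase takes p27, had 89.3, 83.1 and 67.3 CPM in KO replicates 1 to 3, and 51.6, 34.2 and 48.4 CPM in HET replicates 1 to 3, without overlap (log2 fold change 0.84 ± 0.23 SE). Ccnd2, cyclin D2, had 888, 658 and 1055 CPM in KO replicates 1 to 3, and 3336, 1286 and 1576 CPM in HET replicates 1 to 3, also without overlap (-1.25 ± 0.45). Cdc25a, a phosphatase that activates CDK2, and Ccne1, cyclin E1, had log2 fold changes of 0.86 ± 0.29 and 1.01 ± 0.41. The edgeR adjusted p was 0.579 for each of the 4.

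Of 12 tested pocket protein and E2F genes, 8 were above 0, against 8950 of all 17584 genes tested. The median was 0.69, and 0.25 without KO replicate 2. Only 1 gene, E2f6, had an unadjusted edgeR p under 0.05, against 8.59% of all genes tested. E2f6, a repressive E2F, had 23.2, 35.5 and 39.8 CPM in KO replicates 1 to 3, and 45.3, 112 and 52.3 CPM in HET replicates 1 to 3 (log2 fold change -1.09 ± 0.41 SE). E2f1, an activating E2F, had 44.6, 68.5 and 36.6 CPM in KO replicates 1 to 3, and 33.5, 30.2 and 31.7 CPM in HET replicates 1 to 3 (0.65 ± 0.27). The labels did not overlap for either, nor for E2f3 and E2f4, at 0.44 and 0.73, and the edgeR adjusted p of the 4 lay between 0.579 and 0.588. These 4 were named for their small p, which favours genes without overlap. In the whole list, libraries did not overlap for 4 genes higher and 1 lower in KO, against 15.5% of all genes tested.

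Proliferation genes ran opposite to Cdkn1a in the most extreme libraries. All 16 were highest in KO replicate 2, where Cdkn1a was lowest, and Mcm4, of the replicative helicase, had 231 CPM there. In HET replicate 2, where Cdkn1a, Cdkn2a, Cdkn2b and Rb1 were each highest of the 6 libraries, Mcm4 had 20.2 CPM. Across labels the list had 15 of 16 above 0, against 8950 of all 17584 genes tested. Its median log2 fold change was 1.39, and 0.48 without KO replicate 2. Mcm4 alone had an unadjusted p under 0.05 (log2 fold change 1.58 ± 0.62 SE, edgeR adjusted p = 0.579). Pcna, the polymerase clamp, Mcm2, another helicase subunit, and Foxm1, a factor of mitotic genes, had log2 fold changes of 1.19, 1.70 and 1.47, all with an edgeR adjusted p from 0.592 to 0.593. Between these ends the order did not hold throughout. HET replicate 1, KO replicate 1 and HET replicate 3 had list medians of 0.63, 0.42 and -0.64, with Cdkn1a at 418, 589.6 and 695 CPM. KO replicate 3 fell outside that order, with a list median of -0.06 and Cdkn1a at 415 CPM.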

How the data were processed

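Per the labels' protocols, Trizol RNA went into a stranded total RNA kit that removes ribosomal RNA. Partek, Bowtie2 and cutadapt 1.2.1 appear in the submitters' processing notes, with builds GRCm38 and mm10. Annotation, counting method and strand setting: not given in the sources used here. Per gene, the authors deposited estimated counts, not all of them whole, and RPKM. For 94.4% of 10959 genes the length behind the deposited RPKM followed the genomic span, introns included, within 5% of 1 constant, against 3.98% for the exon union. Levels between genes were therefore set per kb of exon (GENCODE M21, GRCm38) from CPM.

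Of 48408 rows, 30 held a biotype word in place of the gene and were left out, and 7 repeated symbols were summed. Groups followed the genotype label, with replicates numbered in accession order. Estimated counts were rounded, filtered with filterByExpr, scaled by TMM and fitted in edgeR 4.0.16 (R 4.3.3) for its quasi-likelihood test, two-sided, KO over HET, with Benjamini-Hochberg adjustment at 0.05. SE is the absolute log2 fold change over the square root of F. Alternatives were DESeq2 1.42.0, limma 3.58.1 (voom, and log2(RPKM + 1) or log2(RPKM + 0.1)), other scalings and filters, a term for a shared title number, and leaving out libraries. Only the edgeR quasi-likelihood test was tried on simulated data, and the DESeq2 and limma fits were not. At the dispersion trend of these libraries it recovered 54% of 8-fold and 90% of 16-fold changes, with 3 false calls. Between libraries of 1 label, chi-square over its degrees of freedom was 155 to 338, so no pair differed by counting error alone. This cannot tell whether they came from separate cultures or animals. Intervals and floors cover counting error only.

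The genes, the companion lists and the tests were chosen with earlier results of these data known. In each companion list, up to 4 genes with the smallest unadjusted p were named; exceptions are stated.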

Additional observations from a re-analysis of the deposited data

How the results depend on the processing

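No gene passed the adjusted threshold in edgeR or limma under any alternative run, while DESeq2 called 240 genes and 1 of the 10 described here, Cdkn2b. Genes at an unadjusted p under 0.05 numbered 1511, and 648 to 2281 when 1 library was left out, with 917 without KO replicate 2, 648 without HET replicate 2 and 2281 without KO replicate 3. Of the 10 genes, 1 to 3 had an unadjusted p under 0.05 when 1 library was left out: Cdkn2b in every fit, with Cdkn1b without KO replicate 3, and with Cdkn2a and Rb1 without HET replicate 1. There were 2 when the pair with the same title number was left out, an alternative chosen after seeing the data. No paired analysis was possible because KO and HET titles share only 1 number; a term for it (replicate block) gave 1055 genes at an unadjusted p under 0.05 and a Cdkn2b log2 fold change of -2.41.

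Signs changed between alternatives for Cdkn1b, Cdkn1c, Cdkn2c, Cdkn2d, Trp53, Mdm2 and Focad. Without KO replicate 2, Cdkn1b was -0.0015, Cdkn2c -0.30, Cdkn2d -0.031 and Focad -0.14; the highest values with 1 library left out were 0.83, 0.76, 0.65 (each without KO replicate 3) and 0.68 (without KO replicate 1). Cdkn1c was 0.66 in limma-voom, 0.57 without HET replicate 3 (lowest -2.08, without KO replicate 1) and 0.88 without the shared title number. Trp53 was -0.30 in limma-voom, -0.032 and -0.14 on log2(RPKM + 1) (-0.032 with no filter too) and log2(RPKM + 0.1), -0.66 without KO replicate 1 and -0.047 without HET replicate 2, with a highest value of 0.69 without KO replicate 2. Mdm2 was -0.15 in limma-voom, -0.028 on log2(RPKM + 0.1), -0.21 without KO replicate 1, -0.33 without KO replicate 3 and -0.31 without HET replicate 1, with a highest value of 0.48 without KO replicate 2. The causes were not tested. With library totals alone the median gene moved to 0.15 (log2), and none of the 10 genes changed sign. Of the 10 genes, Cdkn1c had the fewest counts (0 to 90.5) and so the widest counting error, beside its spread between libraries.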
